A study of Mus musculus with 6 samples.

Results

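The Cyp4 fatty acid omega-hydroxylases are a family of microsomal cytochrome P450 enzymes, and 10 of their genes were followed here among the 16135 genes of a liver expression table. The 10 were taken by symbol: the 6 Cyp4a genes Cyp4a10, Cyp4a12a, Cyp4a12b, Cyp4a14, Cyp4a31 and Cyp4a32, the 3 Cyp4f genes Cyp4f13, Cyp4f14 and Cyp4f15, and Cyp4v3. All 10 were in the table, and the choice was made with earlier results of these data known. RNA of whole liver was sequenced from floxed mice that still carry Acss2 (ACSS2-flox, called the controls, n = 3 libraries) and from mice without ACSS2 in their hepatocytes (ACSS2-HKO, called the knockout, n = 3 libraries). Values are listed in the order of replicates 1 to 3. ACSS2 is the acetyl-CoA synthetase of cytosol and nucleus, which makes acetyl-CoA from acetate, the end product of ethanol oxidation in liver. Both genotypes had been fed ethanol in a Lieber-DeCarli liquid diet for 10 days and then given 1 ethanol binge, so the table holds no group without ethanol. The study set out to examine the part of ACSS2 in alcoholic liver disease. The labels used here name neither the Cre driver nor the sex or age of the mice, and do not say whether each library came from a separate animal. P-values therefore measure the spread between these libraries, which may in part be technical.

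Omega-hydroxylases of the Cyp4 family add a hydroxyl group to the far end of a fatty acid chain. Alcohol and aldehyde dehydrogenases carry the product on to a dicarboxylic acid, which is shortened by beta-oxidation in the peroxisome. In mouse liver Cyp4a10 and Cyp4a14 are classical targets of PPARalpha, the nuclear receptor that senses fatty acids, and the Cyp4a12 genes are known for expression in males under androgen and growth hormone control. The Cyp4f enzymes hydroxylate leukotriene B4 and other eicosanoids, which ends their signalling.

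The members lie in separate gene clusters. In GENCODE M21 on GRCm38, the assembly also called mm10, the Cyp4a genes stand together on chromosome 4. Cyp4a12a lies at chr4:115299046-115332815 on the plus strand and Cyp4a12b at chr4:115411624-115439034 on the plus strand. Cyp4a14, at chr4:115486200-115496142, is on the minus strand. Cyp4a10 at chr4:115518264-115533649, Cyp4a31 at chr4:115563649-115579015 and Cyp4a32 at chr4:115600969-115621602 follow on the plus strand. The Cyp4f genes are on chromosome 17, with Cyp4f15 at chr17:32685627-32703352 on the plus strand, Cyp4f14 at chr17:32905070-32917342 on the minus strand and Cyp4f13 at chr17:32924688-32947402 on the minus strand. Cyp4v3 stands alone at chr8:45304944-45333216 on the minus strand.

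How alike the genes are decides how well their fragments can be told apart, so the coding stretch around the cysteine that holds the haem iron is shown for each distinct member. Each run is 60 coding bases, made of the 10 codons (30 bases) of the haem-binding signature with 15 bases on either side, read 5′ to 3′ from the GENCODE M21 transcripts. In all 10 genes the run crosses a splice junction, and in Cyp4a10 it covers coding positions 1330 to 1389 and spans chr4:115529487-115532558 on the plus strand, intron included. In Cyp4f14 it covers coding positions 1366 to 1425 and spans chr17:32905651-32906080 on the minus strand. Capitals mark bases that differ from Cyp4a10 in the Cyp4a runs, and bases that differ from Cyp4f14 in the Cyp4f and Cyp4v3 runs.
Cyp4a10, Cyp4a31 and Cyp4a32: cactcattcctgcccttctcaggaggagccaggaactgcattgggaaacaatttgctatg
Cyp4a12a and Cyp4a12b: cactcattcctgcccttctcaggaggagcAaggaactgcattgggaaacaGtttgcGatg
Cyp4a14: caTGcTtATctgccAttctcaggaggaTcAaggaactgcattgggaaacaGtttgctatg
Cyp4f14: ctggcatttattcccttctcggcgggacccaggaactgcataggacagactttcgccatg
Cyp4f13: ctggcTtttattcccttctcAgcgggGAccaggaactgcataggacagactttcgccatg
Cyp4f15: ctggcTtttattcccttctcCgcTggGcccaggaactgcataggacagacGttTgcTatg
Cyp4v3: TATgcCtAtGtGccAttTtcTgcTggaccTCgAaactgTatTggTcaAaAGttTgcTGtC
Cyp4a10, Cyp4a31 and Cyp4a32 are identical over this run. The Cyp4a12 copies are identical to each other and differ from Cyp4a10 at 3 bases, and Cyp4a14 differs from it at 9. Cyp4f13 differs from Cyp4f14 at 4 bases, Cyp4f15 at 7 and Cyp4v3 at 24.

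Over the whole coding sequence Cyp4a10 and Cyp4a32 were identical at 97.2% of aligned positions, Cyp4a10 and Cyp4a31 at 96.6%, and Cyp4a12a and Cyp4a12b at 98.5%. Cyp4a14 was more distant, with 75.6% identity to Cyp4a10. The Cyp4f genes shared 74.8% to 80.01% with one another, and Cyp4v3 stood at 51.1% to 53.1% against the other members. Of all stretches of 100 coding bases, 17.9% in Cyp4a10, 13.8% in Cyp4a31, 20.1% in Cyp4a32 and 41.5% in either Cyp4a12 gene also occur in another member. None did so in Cyp4a14, Cyp4f13, Cyp4f14, Cyp4f15 or Cyp4v3. How fragments that match several genes were counted is not given in the sources used here, so the values of Cyp4a10, Cyp4a31, Cyp4a32 and the Cyp4a12 genes are uncertain to that extent. Summing the near-identical copies gave a log2 fold change of -0.45 for Cyp4a10 with Cyp4a31 and Cyp4a32, beside -0.50 for Cyp4a10 alone.

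**Figure D1:**
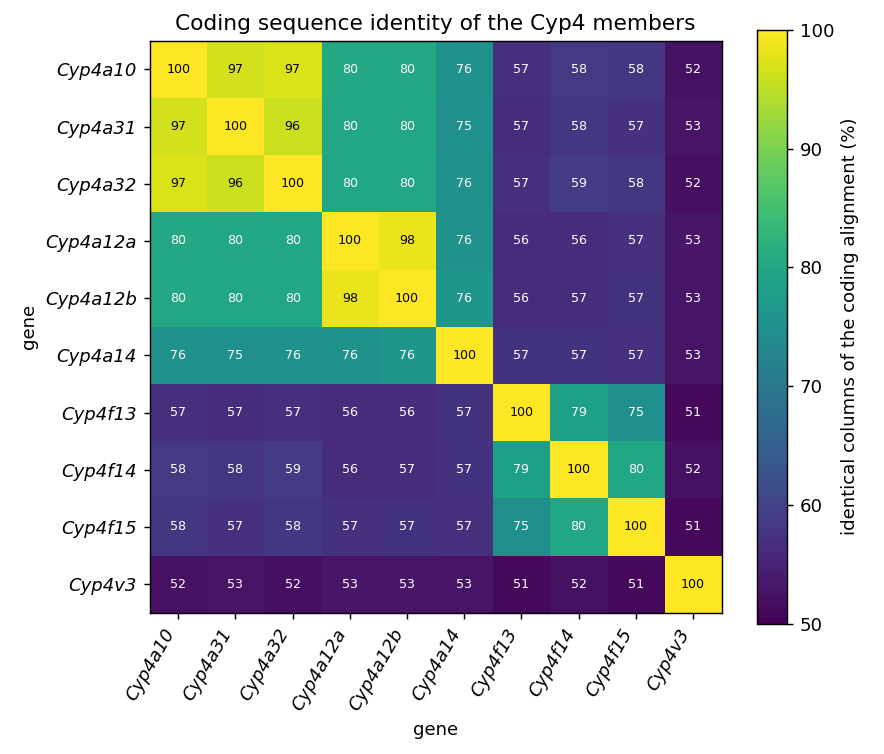
Percent of identical columns in the pairwise alignment of the coding sequences of the 10 Cyp4 genes (GENCODE M21), with both axes listing the genes. Cyp4a10, Cyp4a31 and Cyp4a32 form 1 block of near-identical genes, the Cyp4a12 genes a second (98.5%), and Cyp4v3 stands apart from all.

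The libraries held 33717125 to 39474527 fragments, as implied by the FPKM values, in which each fragment count is divided by gene length and library size. Control replicate 1 and knockout replicate 3 lay away from the others, at -47.7 and 27.6 on the first principal component (47.2% of the variance), where the other 4 libraries were between 2.51 and 8.49. Acss2 itself, the check of the labels, read 87.8, 61.5 and 58.5 FPKM in the control libraries and 50.6, 38.4 and 45.7 FPKM in the knockout libraries. Every ACSS2-HKO library was below every ACSS2-flox library, although the log2 fold change of -0.60 (SE 0.21) had a limma adjusted p of 0.637. A value for the whole gene does not show which exons were deleted. Albumin and the other hepatocyte markers were abundant in every library, with 11 of the 12 listed present and a summed level of 56305 to 103757 FPKM.

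Cyp4a14 and Cyp4a10 were the most abundant members on average, and the levels in the knockout livers ran from far above to far below those of the controls. Cyp4a10, which hydroxylates medium-chain fatty acids such as lauric acid, read 307, 451 and 301 FPKM in the control libraries and 787, 370.0 and 50.2 FPKM in the knockout libraries. ACSS2-HKO replicate 1 was the highest of all 6 libraries and ACSS2-HKO replicate 3 the lowest, so the groups overlapped and the control values lay inside the range of the knockout. Mean levels were 353 ± 85.1 FPKM (SD, n = 3) in ACSS2-flox and 403 ± 370 FPKM (SD, n = 3) in ACSS2-HKO. On the log2(FPKM + 1) scale the fold change, ACSS2-HKO minus ACSS2-flox, was -0.50 (SE 0.84, 95% interval -2.41 to 1.42), with a limma adjusted p of 0.909. The mean of FPKM was thus higher in the knockout and the mean of the log values lower. The sign on the log scale rested on 1 library: it was 0.64 without ACSS2-HKO replicate 3 and -1.33 without ACSS2-HKO replicate 1. Less RNA per cell and fewer expressing cells cannot be told apart in whole liver.

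Cyp4a14, a PPARalpha target like Cyp4a10, read 245, 493 and 419.5 FPKM in the control libraries and 982, 577 and 51.4 FPKM in the knockout libraries. The order of the knockout libraries was the same as for Cyp4a10, with replicate 1 highest and replicate 3 lowest of all 6. Means were 386 ± 128 FPKM (SD, n = 3) and 537 ± 467 FPKM (SD, n = 3). The log2 fold change was -0.26 (SE 0.94, 95% interval -2.40 to 1.88; limma adjusted p 0.956). Without ACSS2-HKO replicate 3 it was 1.02, with both remaining knockout libraries above every control (limma adjusted p 0.9995), and without ACSS2-HKO replicate 1 it was -1.09. These values rest on many fragments, from 6588 in ACSS2-HKO replicate 3 to 112854 in ACSS2-HKO replicate 1, so counting error is small beside the differences between libraries.

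Cyp4a31 and Cyp4a32, the near-identical neighbours of Cyp4a10, were expressed at a small part of its level. Cyp4a31 read 7.58, 7.39 and 6.26 FPKM in the control libraries and 17.4, 6.18 and 3.56 FPKM in the knockout libraries. Its control libraries lay close together, with the knockout libraries on both sides of them. The log2 fold change was 0.07 (SE 0.44, 95% interval -0.94 to 1.08; limma adjusted p 0.977). Cyp4a32 read 12.1, 6.41 and 8.79 FPKM in the control libraries and 23.6, 9.15 and 4.21 FPKM in the knockout libraries. Again ACSS2-HKO replicate 1 was the highest and ACSS2-HKO replicate 3 the lowest of the 6 libraries, and the groups overlapped. Its log2 fold change was 0.15 (SE 0.50, 95% interval -0.996 to 1.30; limma adjusted p 0.953). Without ACSS2-HKO replicate 1 the values turned to -0.49 for Cyp4a31 and -0.44 for Cyp4a32, and without ACSS2-HKO replicate 3 they were 0.51 and 0.68. Scaling by trimmed mean of M-values or by median ratio also gave values below 0 for both genes (-0.082 for Cyp4a31 under both, and -0.0064 and -0.0067 for Cyp4a32).

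Cyp4a12a, the main arachidonic acid omega-hydroxylase of male mouse liver and kidney, was nearly absent. No fragment was counted in any ACSS2-flox library or in ACSS2-HKO replicate 2, and 7 fragments in ACSS2-HKO replicate 1 and 1 in ACSS2-HKO replicate 3 gave 0.0817 and 0.0105 FPKM. Cyp4a12b had a single fragment in all 6 libraries, in ACSS2-HKO replicate 3, at 0.0106 FPKM. A count of 0 allows a level of up to 3 fragments, which is 0.0314 to 0.0375 FPKM over the libraries and both genes. Both genes were below the filter of 1 FPKM mean and took no part in the tests reported here. With no filter both were fitted, and 0 of the 10 members passed the unadjusted threshold. Neither gene showed a genotype difference detectable at this depth.

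**Figure D2:**
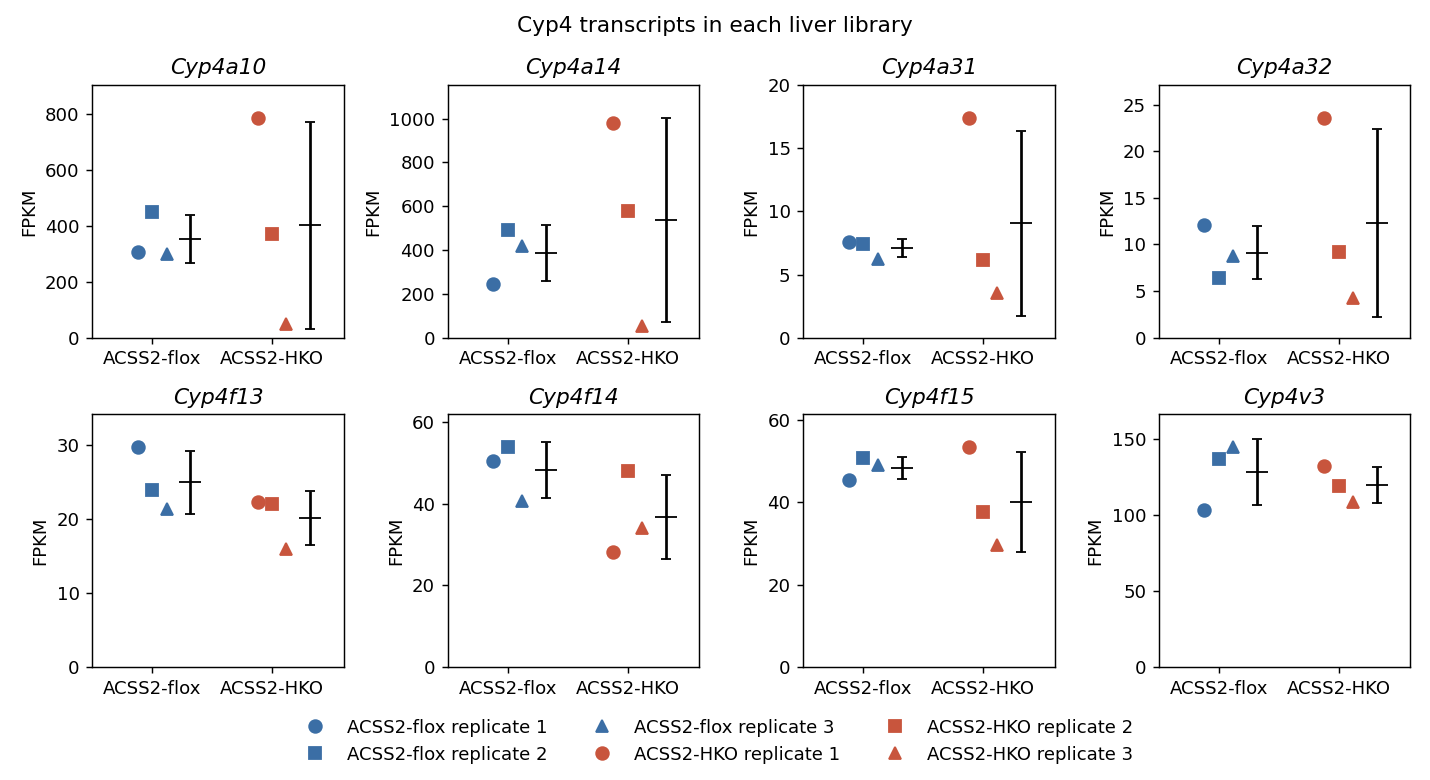
FPKM of the 8 tested Cyp4 genes in each library, with linear axes that start at 0, points for single libraries and black bars for the group mean ± SD (n = 3). For Cyp4a10, Cyp4a14, Cyp4a31 and Cyp4a32 the ACSS2-HKO libraries enclose the ACSS2-flox libraries, from 50.2 to 787 FPKM for Cyp4a10, whereas for the Cyp4f genes the knockout means lie below the control means with overlapping points.

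The 3 Cyp4f genes were lower on average in the knockout, by amounts within the spread between libraries. Cyp4f14, the leukotriene B4 omega-hydroxylase of mouse liver, which also acts on vitamin E, read 50.4, 53.7 and 40.6 FPKM in the control libraries and 28.1, 48.0 and 34.1 FPKM in the knockout libraries. ACSS2-HKO replicate 1, highest for the Cyp4a genes, was here the lowest of all libraries, and only ACSS2-HKO replicate 2 reached into the control range. Means were 48.2 ± 6.82 and 36.7 ± 10.2 FPKM (SD, n = 3 each), and the log2 fold change was -0.41 (SE 0.23, 95% interval -0.93 to 0.12; limma adjusted p 0.687). Cyp4f15, which takes eicosanoid substrates too, read 45.4, 50.7 and 49.0 FPKM in the control libraries and 53.3, 37.6 and 29.5 FPKM in the knockout libraries. Its control libraries differed by a factor of 1.12 at most, with 1 knockout library above and 2 below them. The log2 fold change was -0.30 (SE 0.23, 95% interval -0.82 to 0.22; limma adjusted p 0.763). Cyp4f13 read 29.7, 24.0 and 21.3 FPKM in the control libraries and 22.4, 22.0 and 15.9 FPKM in the knockout libraries. The groups overlapped only through ACSS2-flox replicate 3, and the log2 fold change was -0.30 (SE 0.21, 95% interval -0.78 to 0.17; limma adjusted p 0.737). For all 3 genes the fold change was negative in each of 21 fits (the one reported and 20 alternatives), many of which share libraries and so are no independent evidence. In exact two-sided permutation tests over the 20 arrangements of the libraries, where the smallest possible p is 0.1, Cyp4f14 had p = 0.2, Cyp4f13 p = 0.3 and Cyp4f15 p = 0.4. With single libraries left out, the fold changes ran from -0.61 to -0.24 for Cyp4f14, from -0.52 to -0.11 for Cyp4f15 and from -0.41 to -0.15 for Cyp4f13. Hepatocyte markers were lower on average too: 8 of 11 tested had a negative fold change, where 34.0% of all tested genes did. For 2 of the 11 the groups were free of overlap, lower in ACSS2-HKO, against 2.94% of all tested genes. The median of the 11 was -0.31 beside -0.30 for the 3 Cyp4f genes. Dropping control replicate 1 brought the hepatocyte median to -0.16, where Cyp4f13, Cyp4f14 and Cyp4f15 had -0.18, -0.37 and -0.35. Dropping knockout replicate 3 as well gave medians of -0.12 for the hepatocyte markers and -0.15 for the Cyp4f genes. The part of the hepatocyte signal in the Cyp4f values was not tested.

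Cyp4v3, the mouse counterpart of the human fatty acid omega-hydroxylase CYP4V2, was the steadiest member in the knockout. It read 103.5, 137.2 and 144.7 FPKM in the control libraries and 132.5, 119.4 and 108.5 FPKM in the knockout libraries. The groups overlapped through ACSS2-flox replicate 1, the lowest library. The log2 fold change was -0.09 (SE 0.20, 95% interval -0.54 to 0.36; limma adjusted p 0.933). Under trimmed mean of M-values or median-ratio scaling, and without ACSS2-flox replicate 1, its groups no longer overlapped, with ACSS2-HKO lower.

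Across the family, 0 of the 8 tested members passed limma's adjusted p of 0.05, where 0% of all 9818 tested genes did. At an unadjusted p of 0.05, 0 of the 8 members passed, against 7.59% of all tested genes (6.09% higher in ACSS2-HKO and 1.50% lower). The groups were free of overlap for 0 of 8 members, against 15.5% of tested genes (12.5% higher and 2.94% lower in ACSS2-HKO). Limma voom on the recovered fragments called 0 genes as well. The intervals of Cyp4a10 and Cyp4a14 reach beyond -2 and beyond 1 on the log2 scale, so a missed threshold does not show equal levels. A negative fold change was found for 6 of the 8 members, beside 34.0% of all tested genes. The median over the 8 members was -0.28 and over all tested genes 0.10. Relative to that all-gene median the fold changes were -0.59 for Cyp4a10, -0.36 for Cyp4a14, -0.03 for Cyp4a31, 0.05 for Cyp4a32, -0.40 for Cyp4f13, -0.51 for Cyp4f14, -0.40 for Cyp4f15 and -0.18 for Cyp4v3. Without ACSS2-HKO replicate 3 the members' median was 0.25, so its sign rests on that library.

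**Figure D3:**
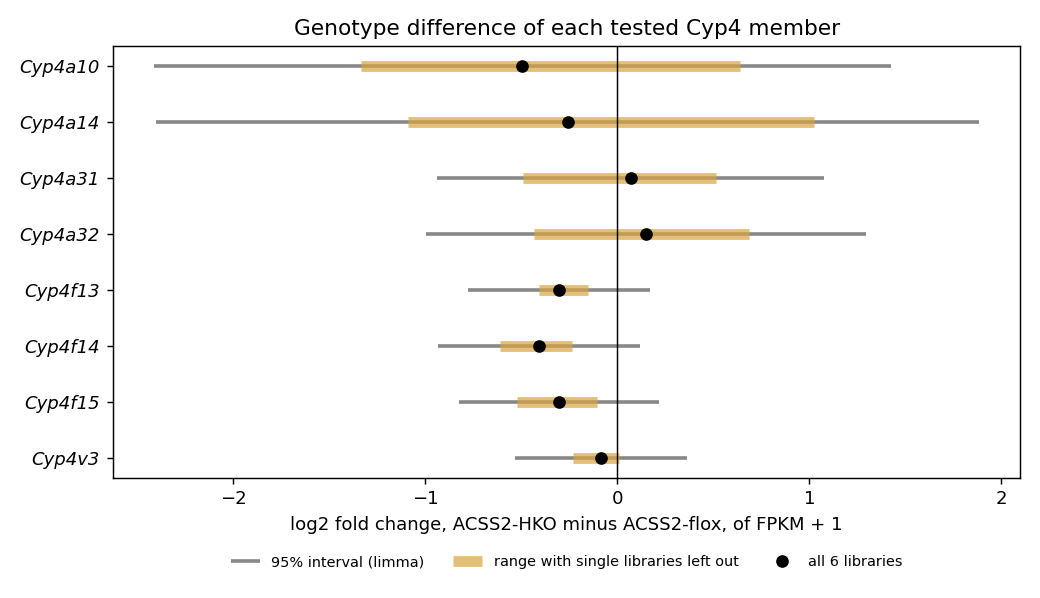
Log2 fold change of FPKM + 1, ACSS2-HKO minus ACSS2-flox, for the 8 tested Cyp4 genes (points), with limma's 95% interval (thin lines) and the range with single libraries left out (thick bars). All 8 intervals include 0, and the bars of the 4 Cyp4a genes reach to both sides of it, from -1.33 to 0.64 for Cyp4a10, whereas those of the 3 Cyp4f genes stay below 0.

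FPKM is scaled to gene length, so levels can be set side by side within a library. Averaged over the 6 libraries, Cyp4a14 stood at 461 FPKM and Cyp4a10 at 378, followed by Cyp4v3 at 124, Cyp4f15 at 44.3, Cyp4f14 at 42.5, Cyp4f13 at 22.5, Cyp4a32 at 10.7 and Cyp4a31 at 8.06. The ranges of Cyp4a14 (51.4 to 982) and Cyp4a10 (50.2 to 787) overlapped almost wholly, as did those of Cyp4f15 (29.5 to 53.3) and Cyp4f14 (28.1 to 53.7), and those of Cyp4a32 (4.21 to 23.6) and Cyp4a31 (3.56 to 17.4). Cyp4v3, with a lowest value of 103.5, was above both Cyp4f14 and Cyp4f15 in every library. The order by mean did not hold in every library. In ACSS2-HKO replicate 3, Cyp4v3 at 108.5 FPKM exceeded Cyp4a14 and Cyp4a10. In ACSS2-flox replicate 1, Cyp4a10 exceeded Cyp4a14 (307 and 245 FPKM). Cyp4f14 exceeded Cyp4f15 in several libraries, such as ACSS2-HKO replicate 2 (48.0 and 37.6 FPKM). Cyp4a31 exceeded Cyp4a32 in ACSS2-flox replicate 2 (7.39 and 6.41 FPKM). The ratio of Cyp4a14 to Cyp4a10 was 0.798, 1.09 and 1.39 in the control libraries and 1.25, 1.56 and 1.02 in the knockout libraries, with the groups overlapping.

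The summed level of the 6 Cyp4a genes was 571, 958 and 736 FPKM in the control libraries and 1810.5, 962 and 109 FPKM in the knockout libraries. Cyp4a10 and Cyp4a14 together made up 92.9% to 98.6% of it. The Cyp4f sum moved much less, with 125, 128 and 111 FPKM in the control libraries and 104, 108 and 79.6 FPKM in the knockout libraries. All 3 knockout sums were below the lowest control sum, but this was seen only after the values were known and no test was run on the sum. The Cyp4a sum was 4.55, 7.46 and 6.64 times the Cyp4f sum in the control libraries and 17.4, 8.94 and 1.37 times that sum in the knockout libraries. All 10 members together took 0.0840% of fragments in ACSS2-HKO replicate 3 and 0.559% in ACSS2-HKO replicate 1, with the remaining libraries between 0.214% and 0.335%.

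The Cyp4a genes varied widely among the knockout libraries. Cyp4a14 differed 19.1-fold between the highest and lowest ACSS2-HKO library and 2.02-fold within ACSS2-flox. Cyp4a10 differed 15.7-fold within ACSS2-HKO and 1.50-fold within ACSS2-flox. On the log2(FPKM + 1) scale the SD within ACSS2-HKO was 2.25 for Cyp4a14, 2.04 for Cyp4a10, 1.12 for Cyp4a32 and 1.03 for Cyp4a31, where the median tested gene had 0.18. Of all tested genes, 99.96%, 99.9%, 99.2% and 99.1% had a smaller SD than these 4. Within ACSS2-flox the same genes were less unusual, with SDs of 0.53, 0.33, 0.41 and 0.13 beside a median of 0.28. Cyp4v3 had an SD of 0.14 within ACSS2-HKO, below that of the median gene. With 3 libraries a group, an SD is itself imprecise, and the difference in spread between genotypes was not tested.

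**Figure D4:**
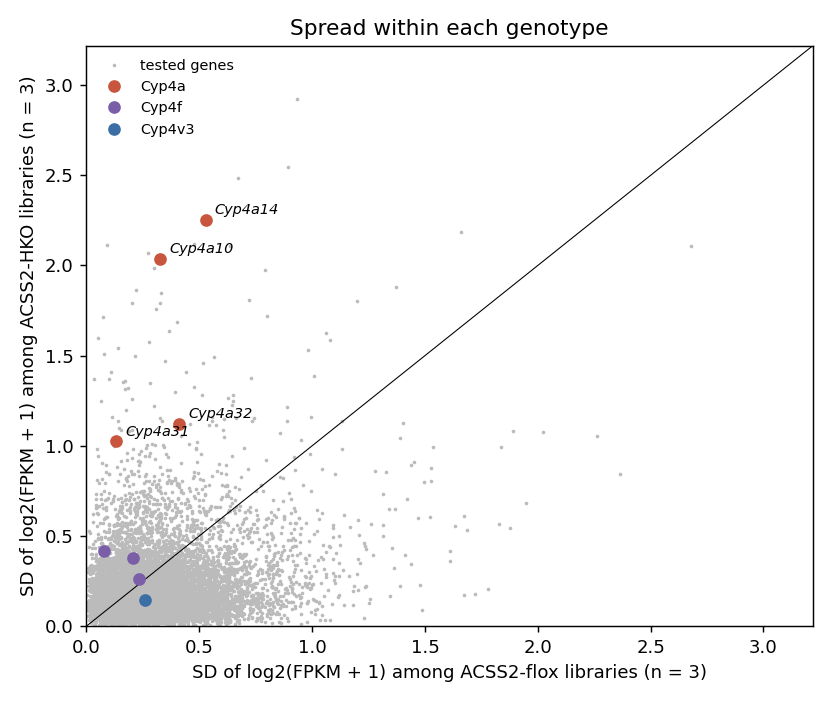
SD of log2(FPKM + 1) among the 3 ACSS2-flox libraries (horizontal) and among the 3 ACSS2-HKO libraries (vertical) for the 9818 tested genes, with the Cyp4 members coloured and the line of equal spread drawn. Cyp4a14 and Cyp4a10, at 2.25 and 2.04 on the vertical axis, lie near the top of the cloud, and the Cyp4f genes and Cyp4v3 lie within it.

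The low end of this spread came from ACSS2-HKO replicate 3. It was the lowest of all 6 libraries for 6 of the 8 tested members, where the same held for 17.2% of tested genes, and the lowest knockout library for 7 of 8, against 42.9%. ACSS2-HKO replicate 1 was the highest of all libraries for 5 members, a count for which the share of all tested genes was not taken. The same libraries differed in acute phase genes, which hepatocytes switch on in inflammation. The median acute phase gene lay 0.73, 0.80 and 2.25 log2 units above the control mean in the 3 knockout libraries, and from -0.03 to 0.01 around it in the controls. All 24 acute phase genes had a positive fold change, as did 6483 of 9818 tested genes. Of the 24, 16 passed the unadjusted threshold upward, where 6.09% of all tested genes did, and 0 passed the adjusted one. Neutrophil markers, 13 listed, summed to 18.2, 14.6 and 8.46 FPKM in the control libraries and 39.9, 55.6 and 363 FPKM in the knockout libraries. None of the 13 was at 0 in all libraries, but only 5 passed the filter of 1 FPKM mean. Kupffer cell and macrophage markers, 13 listed, summed to 486 to 782 FPKM in the controls and 935, 905 and 2256 FPKM in the knockout. Hepatocyte markers summed to 103757, 67978 and 64784 FPKM in the control libraries and 64138, 61883 and 56305 FPKM in the knockout libraries. Every knockout sum lay below every control sum, over a far narrower range than that of Cyp4a10 or Cyp4a14. The separation was narrow, with 64138 FPKM in ACSS2-HKO replicate 1 and 64784 FPKM in ACSS2-flox replicate 3. Only ACSS2-flox replicate 1, a library distant on the first principal component, stood far above the rest. The median Cyp4a gene lay at 1.26, 0.07 and -1.84 against the control mean in the 3 knockout libraries. The part of the inflammatory and hepatocyte signals in the Cyp4a values was not tested.

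**Figure D5:**
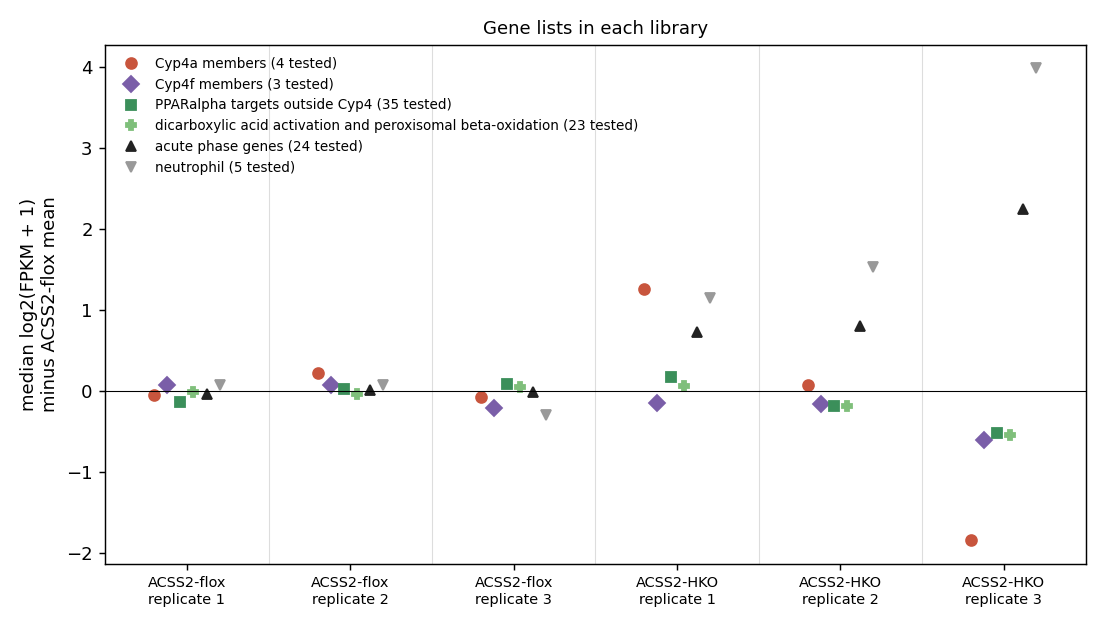
Median log2(FPKM + 1) of the tested genes of 6 lists in each library, as a difference from the ACSS2-flox mean of each gene, with libraries along the horizontal axis. In ACSS2-HKO replicate 3 the Cyp4a median is at -1.84, the acute phase median at 2.25 and the neutrophil median at 3.98, whereas in ACSS2-HKO replicate 1 the Cyp4a median is at 1.26 and the acute phase median at 0.73.

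Among the members, Cyp4a10 and Cyp4a14 followed each other closely over the 6 libraries, with a Pearson r of 0.975 on the log scale, and Cyp4a31 and Cyp4a32 had r = 0.930. Cyp4f15 went with Cyp4a10 (r = 0.881), while Cyp4f14 did not go with Cyp4a14 (r = 0.047) and ran slightly against Cyp4a31 (r = -0.35). These are descriptions over 6 libraries of 2 genotypes, with no test. Cyp4a31, Cyp4a32 and Cyp4a10 share coding stretches of 100 bases with one another, whereas Cyp4a14 shares none with another member.

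Among 2713 genes that varied by at least 1 log2 unit, those most like Cyp4a14 over the 6 libraries were Ehhadh (r = 0.968), Hsd17b11 (r = 0.949), Sparcl1 (r = 0.942) and Retsat (r = 0.936). Ehhadh, the bifunctional enzyme of peroxisomal beta-oxidation, read 121, 135 and 149.6 FPKM in the control libraries and 264, 159 and 59.3 FPKM in the knockout libraries. Its knockout libraries had the same order as those of Cyp4a14, over a narrower range. Retsat, which saturates retinol, read 105, 219 and 191 FPKM in the control libraries and 297, 146 and 60.7 FPKM in the knockout libraries. For Cyp4f14 the most alike genes were Cyp2c69 (r = 0.939), Fam98c (r = 0.929), Mup22 (r = 0.924) and Inhbc (r = 0.916). Cyp2c69, a P450 of the Cyp2c family, read 563, 411 and 255 FPKM in the control libraries and 74.8, 291 and 76.6 FPKM in the knockout libraries, so that ACSS2-HKO replicates 1 and 3 were both low. The 4 genes named for Cyp4a14 and the 4 for Cyp4f14 did not overlap, which says little for such short lists taken from 2713 genes. No such genes were sought for Cyp4a12a, which was too low.

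Around the members, the nuclear receptor PPARalpha and its partners showed no common direction. Ppara read 21.8, 26.2 and 25.3 FPKM in the control libraries and 20.2, 23.0 and 17.1 FPKM in the knockout libraries, with a log2 fold change of -0.27 (SE 0.18, limma adjusted p 0.732). Its knockout values ran over a much narrower range than those of Cyp4a10 and Cyp4a14. Of all tested genes 34.0% were negative and 1.50% passed the unadjusted threshold downward. Of 12 tested genes in that list 6 were positive and 6 negative, and 1 passed the unadjusted threshold, downward. That gene was Fabp1, the liver fatty acid binding protein that carries ligands to the receptor, at -0.95 (adjusted p 0.649). Rxra, the dimer partner of PPARalpha, had a fold change of 0.34 (adjusted p 0.720), and of 0.13 without ACSS2-flox replicate 1. Its groups were free of overlap, higher in ACSS2-HKO, as for 1 of the 12 genes and 12.5% of all tested genes.

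PPARalpha targets outside the Cyp4 family had mostly negative fold changes. Of 35 tested, 26 were negative and 9 positive, where 34.0% of all tested genes were negative. The median was -0.16 beside 0.10 for all tested genes, and was 0.004 without ACSS2-HKO replicate 3. At the unadjusted threshold 3 were lower and 1 higher, where 1.50% of all tested genes were lower and 6.09% higher. The higher one was Cd36, the fatty acid translocase, with 23.0, 29.2 and 32.7 FPKM in the control libraries and 74.3, 55.2 and 53.4 FPKM in the knockout libraries, a log2 fold change of 1.08 (SE 0.21, limma adjusted p 0.452). Unlike Cyp4a10 and Cyp4a14, Cd36 was above the controls in all 3 knockout libraries. Acsl1, which activates long-chain fatty acids, had -0.61 (adjusted p 0.637) and Acaa1b, a peroxisomal thiolase, -0.82 (adjusted p 0.637). In ACSS2-HKO replicates 1, 2 and 3 the median target lay at 0.17, -0.18 and -0.52 against the ACSS2-flox mean, where the median Cyp4a gene lay at 1.26, 0.07 and -1.84. The order of the 3 knockout libraries was the same in both lists and the range smaller in the targets. Among the controls the order differed, with replicate 3 highest in the targets (0.09) and replicate 2 in the Cyp4a genes (0.22). The knockout order was not particular to these lists. Hepatocyte markers (-0.11, -0.20 and -0.38) and electron donors of P450s (0.24, -0.04 and -0.26) had it too, while acute phase genes did not (0.73, 0.80 and 2.25).

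The genes that act with omega-hydroxylation or after it were read in 3 lists. Of all tested genes 34.0% were negative, and 6.09% were higher and 1.50% lower at the unadjusted threshold. Among 6 electron donors of microsomal P450s, 4 were negative and 0 passed the unadjusted threshold, with a median of -0.11 that turned to 0.0041 without ACSS2-HKO replicate 2. Por, the reductase that feeds electrons to these enzymes and chosen here after its values were seen, read 201, 208 and 182 FPKM in the control libraries and 325, 101 and 165 FPKM in the knockout libraries. It too was highest in ACSS2-HKO replicate 1, but lowest in replicate 2 rather than 3. Of the genes of smallest p in that list, Cyb5r3 had a log2 fold change of -0.31, Cyb5a -0.42 and Cyb5r4 0.27. The dehydrogenases that turn omega-hydroxy acids into dicarboxylic acids gave 7 negative of 9 tested, a median of -0.23 (-0.053 without ACSS2-HKO replicate 3) and 0 past the unadjusted threshold. Those of smallest p were Aldh9a1 at -0.29, Adh5 at -0.26 and Adh7 at -0.23. Peroxisomal activation and beta-oxidation genes gave 15 negative of 23 tested and a median of -0.23 (-0.048 without ACSS2-HKO replicate 3), with 4 lower and 1 higher at the unadjusted threshold and 0 at the adjusted one. Acot4, which cleaves CoA esters of dicarboxylic acids, read 22.9, 21.3 and 20.5 FPKM in the control libraries and 17.0, 15.5 and 11.3 FPKM in the knockout libraries, a log2 fold change of -0.55 (SE 0.19, adjusted p 0.637). This list shares 4 genes with the PPARalpha targets, Acsl1 and Acaa1b among them, and Fabp1 stands both among the targets and in the receptor list.

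Of all tested genes 34.0% had a negative fold change. Genes of leukotriene B4, a substrate of the Cyp4f enzymes, were positive in all 5 tested of 9 listed, with a median of 0.64. That median depends on the setting, with 0.34 without ACSS2-flox replicate 1, 0.26 and 1.01 with pseudocounts of 5 and 0.1, and 1.098 with voom. Alox5ap, the activating protein of 5-lipoxygenase, read 3.69, 4.06 and 4.27 FPKM in the control libraries and 5.996, 9.01 and 21.2 FPKM in the knockout libraries, a log2 fold change of 1.21 (SE 0.38, limma adjusted p 0.637). It is a gene of myeloid cells, and its highest library was the one with the most neutrophil and macrophage marker signal, whose part in the result was not tested. Pla2g4a, which releases arachidonic acid, had 0.64 and Ltc4s 0.95. Outside the 10 members, 6 of 10 further Cyp4 genes were in the table and 3 were tested, all with positive fold changes. Cyp4f16, at 1.28, 1.24 and 1.39 FPKM in the control libraries and 2.35, 1.67 and 3.40 FPKM in the knockout libraries, was the one past the unadjusted threshold, with a log2 fold change of 0.56 and an adjusted p of 0.637. Among all tested genes, 6.09% passed that threshold upward. Cyp4f16 thus went the other way from Cyp4f13, Cyp4f14 and Cyp4f15, although the difference between them was not tested. Cyp4f18, the leukotriene B4 hydroxylase of neutrophils, was below the filter, with 0.249, 0.537 and 0.238 FPKM in the control libraries and 0.446, 0.634 and 1.74 FPKM in the knockout libraries.

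The near absence of Cyp4a12a and Cyp4a12b stands beside the levels of other genes with a known sex bias in mouse liver. The Y-linked genes Ddx3y, Kdm5d, Eif2s3y and Uty were at no more than 0.016 FPKM in any library. Male-biased Hsd3b5, Elovl3, Slco1a1 and Moxd1, chosen after their values were seen, were low as well, with highest values of 0.314, 0.435, 1.80 and 0.051 FPKM. The male-biased list as a whole was not low: 12 of its 18 genes passed the filter of 1 FPKM and the list summed to 1288 to 2383 FPKM, with Mup20 at 25.3 to 117 and Cyp2d9 at 18.9 to 107 FPKM, also chosen after their values were seen. The female-biased genes Cyp2b9 and Cyp2a4, chosen in the same way, were abundant in every library, at 206 to 406 and 1104 to 1907 FPKM. Between genotypes, the 18 tested female-biased genes had a median log2 fold change of -0.53 with 16 negative and 2 past the unadjusted threshold, both lower. The 12 tested male-biased genes had a median of 0.09 with 1 past it, higher. Of all tested genes 34.0% were negative, and 1.50% passed that threshold lower and 6.09% higher. The female-biased median was -0.27 without ACSS2-HKO replicate 3 and -0.22 without both distant libraries. Median-ratio scaling moved the male-biased median to -0.071. Hao2, a peroxisomal hydroxy acid oxidase, had the smallest p of the female-biased list, at 12.1, 18.8 and 16.1 FPKM in the control libraries and 6.41, 8.40 and 0.953 FPKM in the knockout libraries (log2 fold change -1.68, limma adjusted p 0.637). Sult3a1 had -1.48 and Cyp2a22 -0.74, and in all 3 genes ACSS2-HKO replicate 3 was the lowest library, as for the Cyp4a genes. In the male-biased list C8a, a terminal complement component, had a log2 fold change of 1.04 (adjusted p 0.623).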

How the data were processed

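Values are FPKM per gene and library as deposited by the authors. No role is given for mm10 and DESeq2, which the submitters' processing notes list, and the sources used here give no aligner, counting tool or annotation. Per the labels' protocols, libraries came from total RNA (VAHTS Universal V6 kit). Groups follow the genotype label. The members and gene lists, and the rule for named genes, were chosen with earlier results of these data known. That rule takes the 10 members, Acss2, Ppara, up to 3 genes of smallest p in the lists described and the 4 genes most alike to Cyp4a14 and Cyp4f14.

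Tests used log2(FPKM + 1) of the 9818 genes whose mean reached 1 FPKM, with limma 3.58.1 in R 4.3.3 (eBayes with trend), two-sided, Benjamini-Hochberg adjustment over all of them and a threshold of 0.05. The pseudocount shrinks fold changes of low genes. FPKM is a share of a library, so abundant genes that rise lower the others. Whole fragments were recovered for 100% of the genes within 0.01 of a whole number. The floor of 3 fragments covers counting error only. The recovery and the test were tried on simulated data. Alternatives were pseudocounts of 0.1 and 5, other filters, scalings and variance models, a replicate block, voom, summed copies and single libraries left out.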

Additional observations from a re-analysis of the deposited data

How the results depend on the processing

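Over 20 alternatives the count of Cyp4 members past the adjusted threshold stayed at 0, and the smallest adjusted p in 166 fits of the 8 tested members was 0.470 (the unfiltered fits of Cyp4a12a and Cyp4a12b are not among these). Of those fits 4 had an unadjusted p under 0.05, for Cyp4a14 without ACSS2-HKO replicate 3, alone or with ACSS2-flox replicate 1, for Cyp4f14 without ACSS2-HKO replicate 2 and for Cyp4f15 without ACSS2-HKO replicate 1. Among all tested genes the count called was 0, with 4 under the replicate block and 0 to 3 with single libraries left out (3 without ACSS2-HKO replicate 2). Replicate numbers in the titles share only a number: same-numbered libraries had correlations of deviations of 0.013, 0.003 and -0.063. No library correlated best with its own number, and the block called 0 members. The number of members whose groups did not overlap was 0. It was 1 with trimmed mean of M-values scaling, 1 with median-ratio scaling (Cyp4v3, lower, in both), 0 to 2 with single libraries left out, and 3 without both distant libraries, ACSS2-flox replicate 1 with ACSS2-HKO replicate 3, (Cyp4a14 and Cyp4a32 higher, Cyp4v3 lower). Fewer libraries make separation easier.

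With single libraries left out, the log2 fold change ran from -1.33 to 0.64 for Cyp4a10, from -1.09 to 1.02 for Cyp4a14, from -0.49 to 0.51 for Cyp4a31, from -0.44 to 0.68 for Cyp4a32 and from -0.23 to 0.0069 for Cyp4v3. The sign turned for Cyp4a10 (0.64) and Cyp4a14 (1.02) without ACSS2-HKO replicate 3, for Cyp4a31 (-0.49) and Cyp4a32 (-0.44) without ACSS2-HKO replicate 1, for Cyp4a31 (-0.0064) and Cyp4v3 (0.0069) without ACSS2-flox replicate 3 and for Cyp4a32 (-0.054) without ACSS2-flox replicate 2. Without both distant libraries it turned to 0.55 for Cyp4a10 and 0.73 for Cyp4a14, and limma array weights gave 0.094 for Cyp4a14. Cyp4a31 turned to -0.082 with trimmed mean of M-values or median-ratio scaling and -0.055 with quantile normalization, and Cyp4a32 to -0.0064 and -0.0067 with the first and second of these. Beyond the arithmetic of fewer samples the cause was not tested. Cyp4f13, Cyp4f14 and Cyp4f15 kept a negative sign in every alternative.

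The split of unadjusted calls over all genes, 598 higher and 147 lower, depended on scaling: it was 317 and 347 with median-ratio scaling, 326 and 346 with trimmed mean of M-values and 397 and 350 with quantile normalization. The median fold change of all genes went from 0.10 to -0.04 under median-ratio scaling. With single libraries left out, 267 to 577 genes were higher and 74 to 464 lower, with the fewest of both without ACSS2-HKO replicate 3 and the most lower without ACSS2-flox replicate 1.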
